A study of Saccharomyces cerevisiae with 6 samples.

Results

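The genes of the proteasome and of its transcriptional activator RPN4 were followed in Saccharomyces cerevisiae while yeast frataxin (YFH1) was switched off. The members were all open reading frames (ORFs) whose standard symbol is PRE, PUP, RPN or RPT with a number, together with SCL1. This rule found 34 of the 6174 ORFs measured: 14 genes of the core particle (PRE, PUP and SCL1), 19 of the cap (RPN and RPT) and RPN4. The strain tetYFH1 (BQS201) is W303-1A with its YFH1 gene behind a doxycycline-repressed promoter (tetO7-YFH1::kanMX4), and its control, here called W303, is W303-1A itself. Both were grown in YPG, a rich glycerol medium, at 30 °C and received 2 µg/ml doxycycline for 10 h. On each of 6 two-colour arrays, RNA of the treated cells was hybridised against RNA of untreated cells of that strain. The samples are titled 0 h against 10 h, so within a strain the drug and the time cannot be told apart. W303 carries neither the tet promoter nor its marker, and growth without frataxin, the promoter and the marker are tied together in tetYFH1.

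The proteasome is the protease that degrades ubiquitin-tagged proteins in the cytosol and nucleus. Its barrel-shaped core particle holds the cutting sites inside, stacked from outer rings of alpha subunits and inner rings of beta subunits. The cap binds ubiquitin chains, removes them, and unfolds and feeds the substrate into the barrel through a ring of ATPases. In yeast the genes of both parts are switched on together by Rpn4, which binds a shared promoter element. Rpn4 is itself a short-lived substrate of the proteasome, so that a proteasome shortage stabilises it and raises the transcription of the subunit genes.

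Values are log2 ratios of doxycycline-treated over untreated cells as deposited, and a negative one means less of the transcript in the treated cells. In whole cultures a change in part of the cells and a smaller change in all of them cannot be told apart. The tetYFH1 arrays form 2 dye-swap pairs, A (arrays A1 and A2) and B (B1 and B2), and W303 has 1 pair. Each pair mean was taken as a single replicate, which leaves n = 2 in tetYFH1 and n = 1 in W303, and the spread used for W303 is that of tetYFH1. The labels name no separate cultures behind the pairs, so that the p-values cover just the spread among these arrays, which may be technical. YFH1 itself, the check of the labels, was at −2.64 and −3.29 in pair A and at −5.38 and −5.11 in pair B, against −0.08 and −0.05 in W303. For W303 the direction of the ratio is known from the labels only. Pair B stands apart in its spread, in its whole numbers and, on B2, in its median. The median over all ORFs was 0.21 on B2, against 0 on B1 and 0.02 to 0.07 on the other 4 arrays. The SD over all ORFs was 0.744 on B1 and 0.654 on B2, against 0.392 to 0.459 on the other 4 arrays. An exactly whole log2 number was given for 42.2% of the ORFs on B1 and 24.7% on B2, but for at most 8 ORFs on any other array. Such a number on at least 1 of these 2 arrays was found for 8 of 14 core genes, 10 of 19 cap genes and RPN4, against 52.2% of all ORFs.

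No proteasome gene passed the test in tetYFH1, and the members lay slightly below the other genes. The median of the 34 log2 ratios was −0.14 in tetYFH1, against 0.11 over all ORFs, and 32 of 34 lay below the median of all ORFs. On single tetYFH1 arrays that count was 21 (A1), 24 (A2), 21 (B1) and 30 (B2). The share of all ORFs below their own median was 37.7% on B1, against 49.95% on A1 and 49.97% on A2 and B2. On B1 that median was 0, and 1708 of all ORFs and 7 of 34 members were at exactly 0. The counts on B1 and A1 thus stand against different shares. On B2, 12 members were at exactly 0, which is below the median of all ORFs there (0.21). In W303 the pair mean put the members' median at 0.19, against 0.05 over all ORFs, but the 2 arrays differed in this. The members' median was 0.02 on W303 array 1, against 0.07 over all ORFs, with 20 of 34 below it. On array 2 it was 0.37, against 0.02 over all ORFs, so the higher value in W303 rests on array 2. With limma, 0 of 34 members had an adjusted p under 0.05 in tetYFH1 in either direction (lowest adjusted p 0.560). The background was 0.405% of all ORFs called lower and 0% called higher. At an unadjusted p under 0.05 the count was also 0 of 34, where 3.63% of all ORFs were lower and 5.83% higher. The unadjusted 95% intervals of the members reached 0.526 to either side in the median, and the adjusted test needs a larger change than that to pass. Leaving out any 1 tetYFH1 array moved the count of members below the median of all ORFs to between 28 and 32 of 34. The median of the members moved to −0.25 without B2 and to −0.07 without B1.

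The regulator RPN4 was examined next. In pair A its log2 ratio was −0.22 and 0.23 and in pair B −0.66 and −1.0, against −0.03 and −0.09 in W303. Pair B was low and pair A lay on both sides of 0, so the tetYFH1 arrays overlap those of W303. The mean in tetYFH1 was −0.41 ± 0.59 (SD, n = 2, limma adjusted p 0.639), with pair means of 0.01 (A) and −0.83 (B). RPN4 thus did not pass, and its value on B2 was one of the whole numbers. The difference between the strains was −0.35 (95% interval −1.42 to 0.71, limma adjusted p 0.998). Without pair B the RPN4 value in tetYFH1 was 0.0055 and the difference was 0.07.

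**Figure D1:**
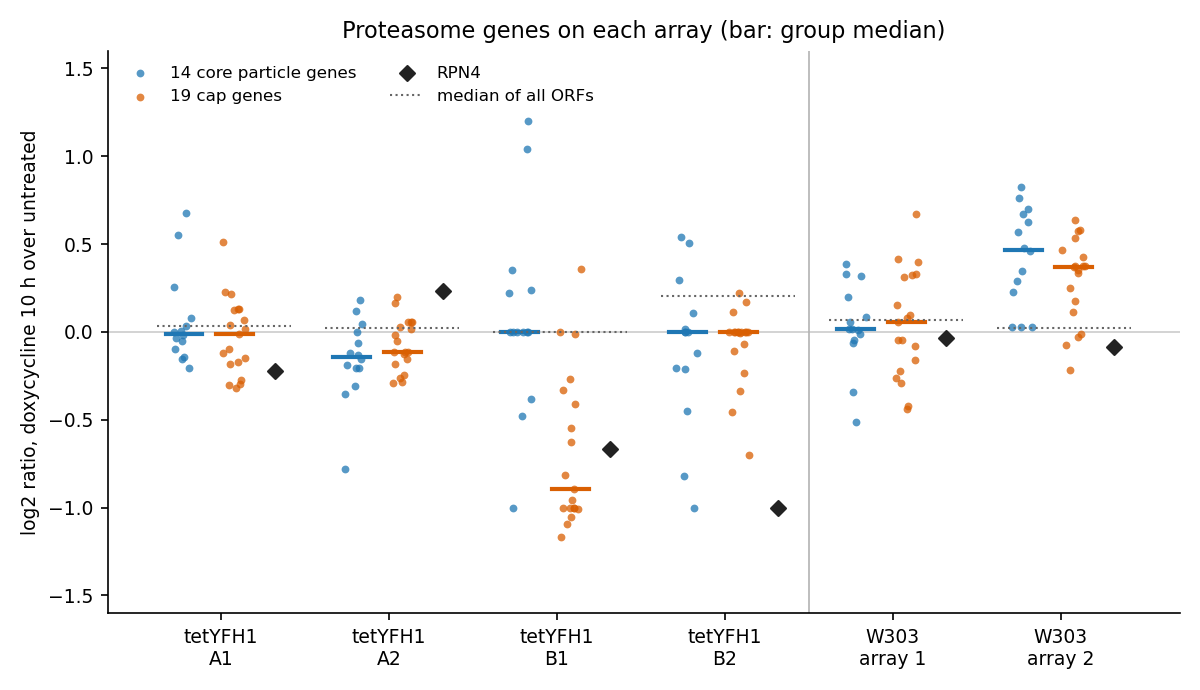
Log2 ratio (treated over untreated, vertical axis) of the 14 core particle genes, the 19 cap genes and RPN4 on each of the 6 arrays; points are genes, solid bars group medians and dotted lines the median of all ORFs. The cap genes stand low on B1, with a median of −0.89, and most members stand above the dotted line on W303 array 2.

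The core particle was taken first by its rings. Of the alpha ring, which gates the entry to the barrel, SCL1 was the one member above 0 on all 4 tetYFH1 arrays, as 11.5% of all ORFs were. It read 0.26 and 0.05 in pair A and 1.20 and 0.30 in pair B, against 0.01 and 0.48 in W303. Its mean of 0.45 ± 0.42 (SD, n = 2) was the highest among the members and came mostly from B1 (limma adjusted p 0.591). PRE6, another alpha subunit, had 0.03, −0.19, 0.00 and −1.0 on the 4 tetYFH1 arrays, against −0.07 and 0.35 in W303. Its low mean of −0.29 thus came mostly from B2, where its value was one of the whole numbers. PUP2 read −0.0022, −0.06, −0.48 and 0.00 in tetYFH1, against 0.32 and 0.03 in W303, and PRE10 read −0.02, −0.35, 0.00 and 0.00, against 0.20 and 0.70. For both of these genes all 4 tetYFH1 arrays lay below both W303 arrays, although 3 of the 4 lay close to 0. PRE5 was near its untreated level in tetYFH1, at −0.05, 0.0022, 0.24 and −0.20, against 0.39 and 0.29 in W303. PRE8 changed sign with the dye, at 0.55, −0.78, 0.35 and −0.45 on A1, A2, B1 and B2, so its mean of −0.08 stands for values on both sides of 0. PRE9, the one core subunit gene that yeast can live without, had a mean of −0.03 in tetYFH1 and 0.09 in W303.

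The 7 genes of the beta ring held the lowest mean of the core particle, that of PRE2. Among them are the genes of the subunits with the cutting sites: PRE3 (after acidic residues), PUP1 (after basic residues) and PRE2 (after hydrophobic residues). PRE3 read −0.04 and 0.18 in pair A and 1.04 and 0.54 in pair B, against −0.51 and 0.03 in W303. The PRE3 mean of 0.43 ± 0.51 (SD, n = 2) came from pair B and did not pass (limma adjusted p 0.620). PRE2 went the other way on B1: it read −0.14, −0.12, −1.0 and −0.12 on A1, A2, B1 and B2, against 0.02 and 0.83 in W303. It was the one core gene below 0 on all 4 tetYFH1 arrays, where 6.75% of all ORFs were, with a mean of −0.34 ± 0.30 (SD, n = 2, limma adjusted p 0.657). PUP1 was at −0.20 and −0.21 in pair A and at 0.22 and 0.11 in pair B, against −0.34 and 0.57 in W303. The means of the 3 catalytic genes, 0.43 for PRE3, −0.02 for PUP1 and −0.34 for PRE2, thus lay on both sides of 0, and none of them passed. Of the structural beta subunits, PRE1, PRE7 and PUP3 had tetYFH1 means between −0.07 and −0.05, with an exact 0 on B1 in each. PRE4 read 0.68, −0.16, 0.00 and −0.82 in tetYFH1, against 0.06 and 0.67 in W303. The arrays of either pair lay on opposite sides of its mean of −0.07.

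In the cap, the lid, which carries the enzyme that cuts ubiquitin chains off the substrate, stood lowest on 1 array, B1. The 8 lid genes (RPN3, RPN5, RPN6, RPN7, RPN8, RPN9, RPN11 and RPN12) had a median of −0.98 on B1, and all 8 lay between −1.10 and −0.55 there. On the other tetYFH1 arrays their medians were 0.10 (A1), −0.11 (A2) and 0.00 (B2), against 0.02 and 0.37 on the W303 arrays. RPN6, which clamps the lid to the core particle, read 0.12, −0.18, −0.95 and −0.45 in tetYFH1, against 0.08 and 0.34 in W303. The scaffold gene RPN5 had −0.32, −0.11, −1.10 and 0.17 in tetYFH1, against −0.05 and 0.53 in W303. RPN8, the partner of the deubiquitinase, was at −0.12, −0.11, −0.89 and −0.11, below 0 on all 4 tetYFH1 arrays, against −0.26 and 0.57 in W303. RPN11, the deubiquitinase itself, was at 0.22, −0.25, −0.55 and −0.34, against 0.41 and 0.38 in W303. RPN9 had 0.13, 0.06, −0.62 and 0.11 in tetYFH1, against −0.42 and 0.18 in W303. The lid means in tetYFH1 lay between −0.37 (RPN6) and −0.08 (RPN9), and 0 of the 8 passed. RPN3, RPN7 and RPN12 each read exactly −1.0 on B1 and exactly 0.00 on B2.

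The 6 ATPase genes RPT1 to RPT6, whose products unfold the substrate, had a median of −0.20 in tetYFH1 and 0.01 in W303. RPT1 had the lowest mean of all 34 members, with −0.30 and −0.29 in pair A and −1.17 and 0.00 in pair B, against 0.06 and −0.01 in W303. That mean was −0.44 ± 0.21 (SD, n = 2, limma adjusted p 0.560). RPT5 was the one ATPase gene with a mean above 0 (0.06): it read −0.01, −0.12, 0.36 and 0.00 in tetYFH1, against −0.44 and 0.43 in W303. After each array was centred on its median the RPT5 mean was −0.0071. RPT6 read −0.10, −0.15, −0.41 and −0.0043 in tetYFH1, against 0.33 and 0.64 in W303, with the strains apart. RPT2, RPT3 and RPT4 had tetYFH1 means of −0.24, −0.14 and −0.31. On B2, 4 of the 6 ATPase genes were at exactly 0.

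RPN1, RPN2, RPN10 and RPN13 encode the large base subunits and the receptors that bind ubiquitin chains. RPN2, a scaffold of the base, was level in pair A (0.01 and 0.05) and low in pair B (−1.05 and −0.70), against 0.31 and 0.47 in W303. Its mean of −0.42 ± 0.64 (SD, n = 2) had a limma adjusted p of 0.641. RPN1, the other large base subunit, was at 0.51 and 0.20 in pair A and at −0.33 and −0.23 in pair B, against 0.16 and 0.38 in W303. Its mean of 0.04 became −0.03 after centring. RPN10, a ubiquitin receptor, read 0.04, −0.05, −0.01 and 0.00 in tetYFH1, the narrowest range of the 34 members, against 0.09 and 0.25 in W303. RPN13, also a receptor, had a mean of −0.09 in tetYFH1 and 0.25 in W303. RPN14 shares the symbol but is a chaperone of cap assembly and no subunit. It read 0.13, 0.16, −1.0 and 0.00 in tetYFH1, against 0.67 and −0.22 in W303.

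**Figure D2:**
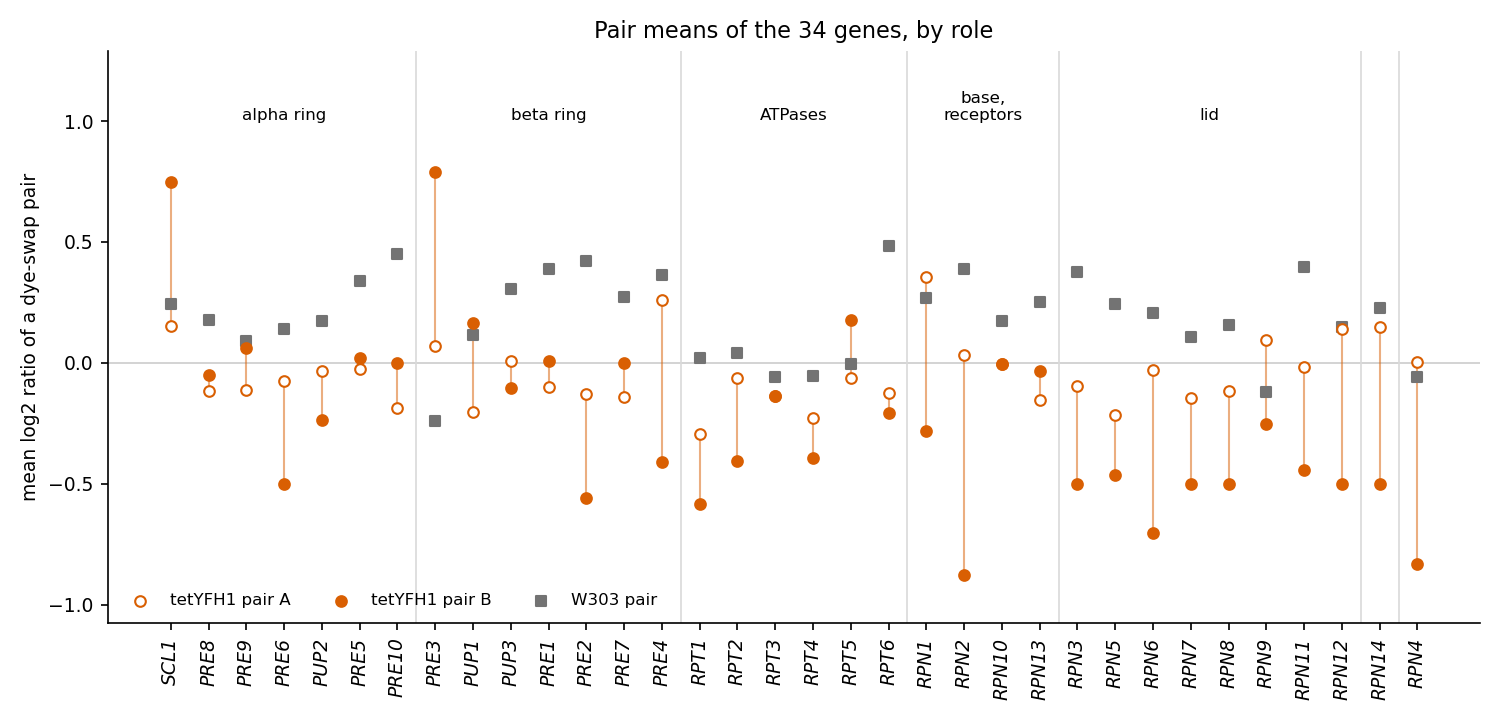
Mean log2 ratio (vertical axis) of each dye-swap pair for the 34 genes, ordered by role, with RPN14 and RPN4 at the right; open circles are tetYFH1 pair A, filled circles tetYFH1 pair B and squares the W303 pair, and vertical lines join the tetYFH1 pairs. Pair B lies below pair A for all 8 lid genes, RPN2, RPN14 and RPN4, and far above it for SCL1 and PRE3.

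The core particle and the cap were then set against each other on each array. They stood apart on B1 and on no other tetYFH1 array: the median of the core genes was 0 on B1, while that of the cap genes was −0.89. On A1 both medians were −0.01, on A2 they were −0.14 for the core and −0.11 for the cap, and on B2 both were 0. The core and cap medians on W303 array 1 were 0.02 and 0.06, and on array 2 they were 0.47 and 0.37. On B1, 1 of 14 core genes (PRE2) and 13 of 19 cap genes lay at or below −0.5, where 17.3% of all ORFs did. Lower on B1 than on B2 were 4 of 14 core genes and 17 of 19 cap genes, where 59.3% of all ORFs were. Over both pairs the medians in tetYFH1 were −0.06 for the core and −0.23 for the cap, a gap of 0.17. The gap was 0.44 in pair B and −0.02 in pair A, and without B1 it was −0.03. It therefore rests on B1. No test of the gap was made, because the members were chosen with earlier results of these data known and also share arrays.

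Whole numbers were found for 12 of 34 members on B1 (35.3%, against 42.2% of all ORFs) and for 14 of 34 on B2 (41.2%, against 24.7%). On B1, 7 of 14 core genes had one, 6 of them 0, and 5 of 19 cap genes had one, 4 of them −1. On B2, 4 of 14 core genes had one, 3 of them 0, and 9 of 19 cap genes had one, all of them 0. Among the members with other numbers, the B1 median was 0.24 for 7 core genes and −0.72 for 14 cap genes, of which 13 lay below 0. The B2 medians were −0.05 for 10 core genes and −0.09 for 10 cap genes. Over all ORFs the medians without whole numbers were −0.05 on B1 and 0.28 on B2. The cap genes thus stood below the core genes on B1 with and without them. How the whole numbers arose was not tested.

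**Figure D3:**
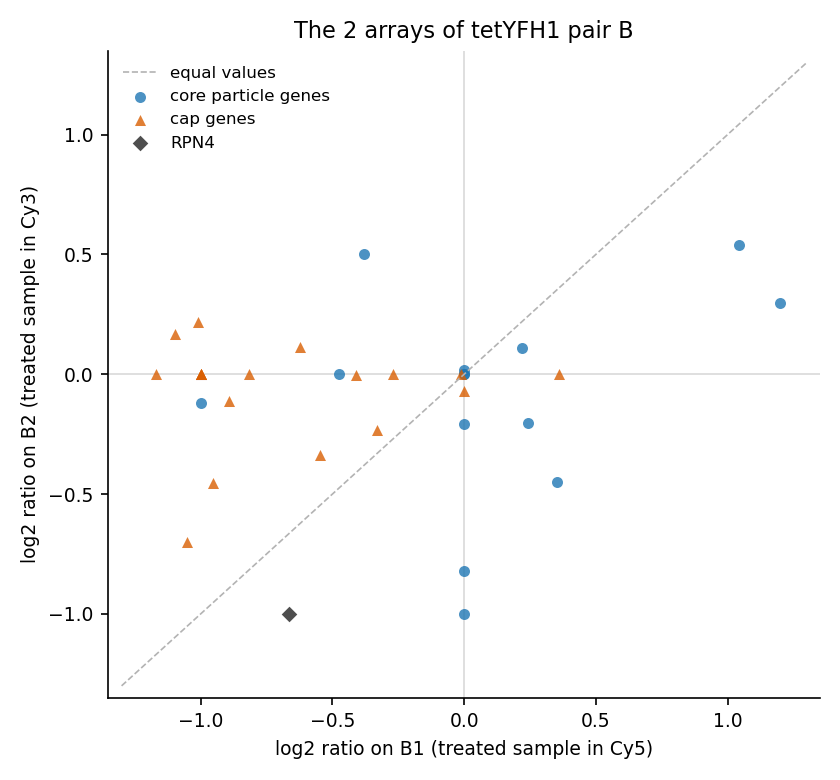
Log2 ratio on B1 (horizontal axis) against B2 (vertical axis), the dye-swapped arrays of tetYFH1 pair B, for core genes (circles), cap genes (triangles) and RPN4 (diamond); the dashed line marks equal values. Cap genes spread along the horizontal line at 0 on B2 and reach −1.17 on B1, while core genes spread along both axes; points at whole numbers overlie each other.

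The arrays of a pair agreed little within the members. Across the 34 genes the Pearson correlation was −0.17 between A1 and A2, 0.14 between B1 and B2 and −0.15 between the W303 arrays. Over all 6174 ORFs the same pairs of arrays had 0.60, 0.40 and 0.24 (by Spearman rank 0.49, 0.28 and 0.10). Core and cap differed in pair A, with a Pearson correlation of −0.44 across the 14 core genes and 0.40 across the 19 cap genes. In pair B these were 0.25 and 0.06, and in W303 −0.07 and −0.24. The pair means of A and B had 0.06 across the members and 0.31 across all ORFs. These correlations are across genes, which share arrays and are not independent replicates. They describe members with small ratios, whose order within tetYFH1 differed from array to array, though less so for the cap between A1 and A2.

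The W303 arrays gave the members' ratios without the tet promoter. No member passed in W303 (limma adjusted p 0.999 for each), where 0% of all ORFs passed. At an unadjusted p under 0.05 the count was 0 of 34, against 2.62% of all ORFs. The core median was 0.26 and the cap median 0.17 as pair means. The 2 W303 arrays differed: on array 2, 29 of 34 members lay above the median of all ORFs, among them all 14 core genes, and on array 1 14 did. The largest values on array 2 were those of PRE2 (0.83) and PRE1 (0.76). RPN4 was at −0.09 there. Both arrays were above 0 for 9 of 14 core genes and 7 of 19 cap genes, against 30.1% of all ORFs, and both were below 0 for RPT3 and RPN4, against 21.9%. Array 2 was higher than array 1 for 11 of 14 core genes and 13 of 19 cap genes, against 50.2% of all ORFs.

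The difference of tetYFH1 minus W303 had a median of −0.35 over the members, against 0.07 over all ORFs, and 32 of 34 members lay below the median of all ORFs. Both strains enter this difference: the members' median minus that of all ORFs was −0.24 in tetYFH1 and 0.14 in W303. RPN2 (−0.81, 95% interval −1.91 to 0.29), PRE2 (−0.77, −1.70 to 0.16) and RPN3 (−0.67, −1.60 to 0.25) had the lowest differences. PRE3 had the highest, 0.67 (−0.35 to 1.69). With limma 0 of 34 members passed (lowest adjusted p 0.904), as did 0% of all ORFs. At an unadjusted p under 0.05 the count was 0 of 34, against 2.54% of all ORFs lower and 3.79% higher. All 4 tetYFH1 arrays lay below both W303 arrays for 10 of the 34 members (29.4%), against 9.31% of all ORFs. These were PUP2, PRE5, PRE10, PRE2 and PRE7 of the core and RPT6, RPN2, RPN10, RPN3 and RPN11 of the cap. Among them PUP2, PRE10, PRE2, PRE7, RPN10 and RPN3 had a whole number on B1 or B2, as 52.2% of all ORFs did. PUP2 met the rule with an exact 0 on B2, against 0.03 on W303 array 2. The part of the whole numbers in this count was not tested. No member had all 4 tetYFH1 arrays above both W303 arrays, where 13.3% of all ORFs did. Without W303 array 2 the count of members apart and lower was 13 (38.2%, against 19.5% of all ORFs), and the median difference was −0.16. Without array 1 it was 22 (64.7%, against 21.7%), with a median difference of −0.56. With the W303 ratios turned to untreated over treated, the core and cap medians in W303 were −0.26 and −0.17, so the contrast between the strains depends on the labelled direction.

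**Figure D4:**
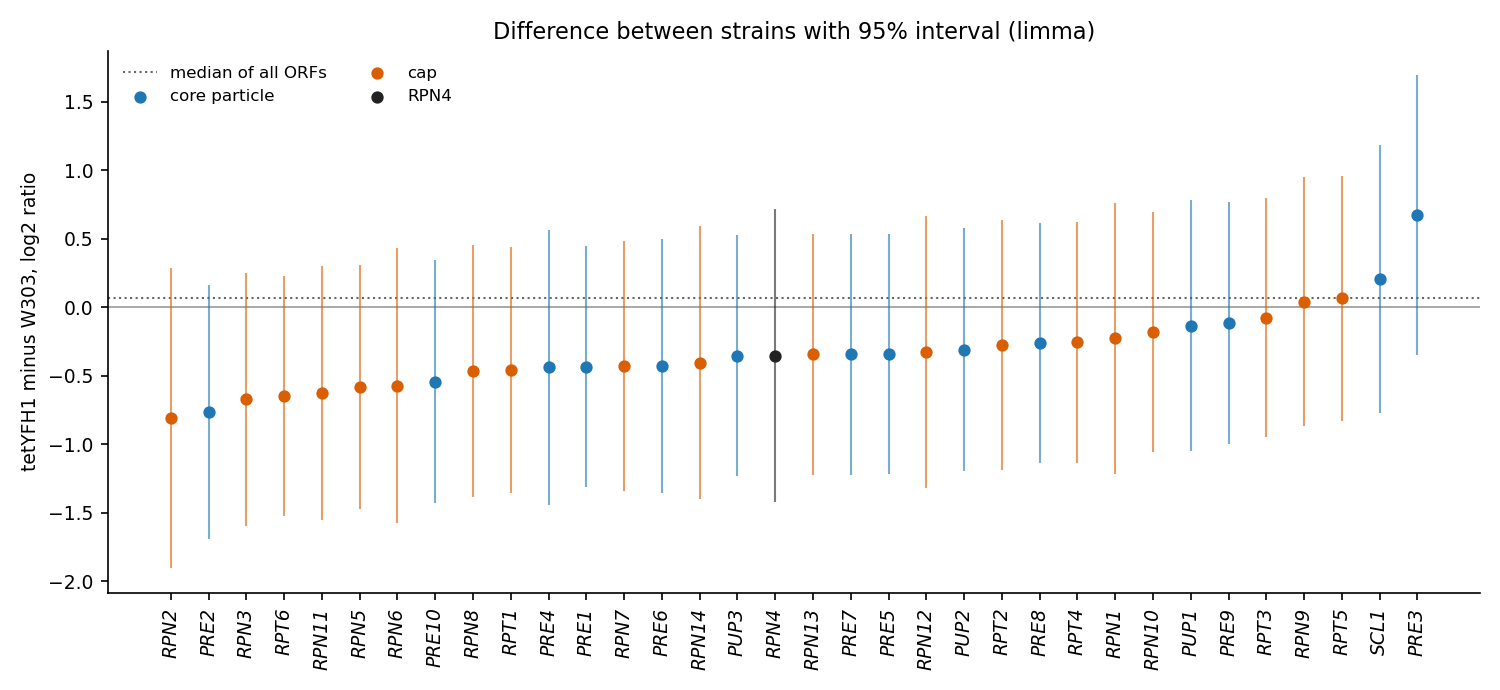
Difference between the strains (tetYFH1 minus W303, log2 ratio, vertical axis) for the 34 genes in rising order, with 95% intervals from limma; colours give core, cap and RPN4, and the dotted line is the median of all ORFs. Of the 34 points 30 lie below 0, and every interval includes 0.

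The surroundings of the proteasome were followed through 4 companion lists. The first held 14 assembly chaperones and associated proteins, of which 13 were measured (not SEM1, a small lid subunit). The median was −0.05 in tetYFH1 and 0.10 in W303, and 0 of 13 passed with limma, with 1 (ECM29, higher) at an unadjusted p under 0.05, against 5.83% of all ORFs higher and 3.63% lower. That is 7.69% of the list and near the share over all ORFs. ECM29, a large protein that tethers core and cap, was at 0.42, 0.69, 0.69 and 0.68 in tetYFH1, against −0.02 and −0.01 in W303. All 4 tetYFH1 arrays lay above both W303 arrays, and its mean of 0.62 ± 0.09 (SD, n = 2) had an unadjusted p of 0.0231 and a limma adjusted p of 0.501. PBA1, a chaperone of the alpha ring, had a mean of 0.45, with its largest value of 1.00, a whole number, on B1 (limma adjusted p 0.605). UBP6, a deubiquitinase that sits on the cap, had a mean of −0.39 in tetYFH1 and 0.22 in W303 (limma adjusted p 0.625). Its value on B1 was −1.0, one of the whole numbers.

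The 8 genes that control RPN4 or the stability of its product had a median of 0.08 in tetYFH1 and 0.04 in W303, with 5 means above 0 and 3 below it in tetYFH1. With limma 0 of 8 passed, and 0 of 8 had an unadjusted p under 0.05, against the same shares of all ORFs. They include the ubiquitin ligase of Rpn4 (UBR2 with MUB1 and RAD6) and the activators HSF1, YAP1, PDR1 and PDR3. PDR3 had a mean of 0.22, but read −1.0, a whole number, on B1 and 0.97 on B2. RAD6 (0.20) and UBR2 (0.19) followed, at limma adjusted p values of 0.802 and 0.810.

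Of the 16 genes of ubiquitin transfer and delivery to the proteasome, 0 passed with limma and 1 (UBC5, lower; 6.25% of the list) had an unadjusted p under 0.05, against 3.63% of all ORFs lower and 5.83% higher. The median was −0.21 in tetYFH1 and 0.11 in W303. UBC5, a ubiquitin-conjugating enzyme of stressed cells, read −0.77, −0.74, −0.33 and −1.34 in tetYFH1, against −0.57 and −0.34 in W303. It was below 0 on all 6 arrays, with overlapping strains and a mean of −0.79 ± 0.05 (SD, n = 2, limma adjusted p 0.375, unadjusted 0.00704). UBC4, its near-identical paralog, had a mean of 0.29. Whether the spots tell these genes apart was not tested, so both values are uncertain. UBI4, the polyubiquitin gene, was at −0.09 and −0.19 in pair A and at −1.0 on both arrays of pair B, against −0.09 and 0.74 in W303 (mean −0.57, limma adjusted p 0.536). Both pair B values of UBI4 are among the whole numbers. Its repeats are shared with other ubiquitin genes. CDC48, the segregase that pulls ubiquitylated proteins out of complexes, was near 0 in pair A (mean −0.02) and at −1.53 and −0.76 in pair B (limma adjusted p 0.561).

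The vacuolar proteases, the cell's other route of protein breakdown, had a median of −0.33 in tetYFH1 and −0.10 in W303 over 7 genes. With limma 0 of 7 passed and 1 (CPS1, lower) had an unadjusted p under 0.05, against 3.63% of all ORFs lower and 5.83% higher. CPS1, a carboxypeptidase, read −0.16, −0.82, −1.68 and −2.10 in tetYFH1, against −0.61 and −1.10 in W303. It was low in both strains, with a mean of −1.19 ± 0.99 in tetYFH1 (SD, n = 2) and −0.85 in W303 (limma adjusted p in tetYFH1 0.388). The aminopeptidases APE1 (listed as LAP4) and APE3 had tetYFH1 means of −0.52 and −0.33, at limma adjusted p values of 0.561 and 0.661.

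**Figure D5:**
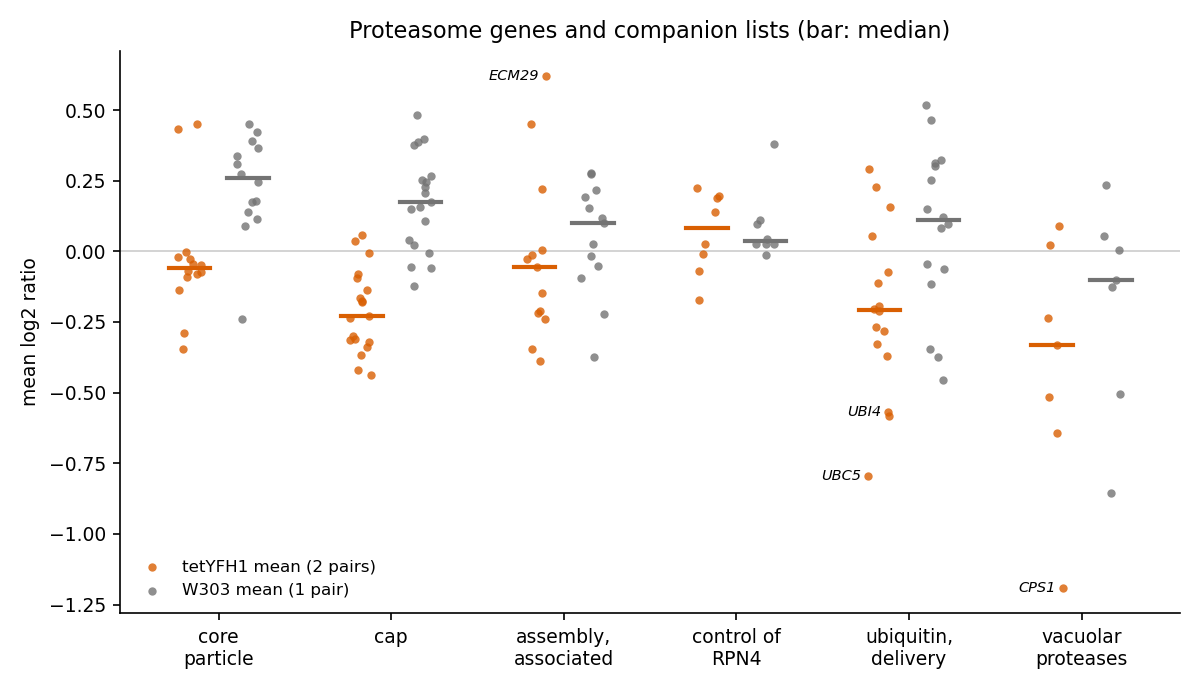
Mean log2 ratio (vertical axis) of the genes of the core, the cap and the 4 companion lists, in tetYFH1 (left of each list) and in W303 (right); bars are medians. ECM29 at 0.62 and CPS1 at −1.19 are the ends of the tetYFH1 values; the tetYFH1 median lies below the W303 one in the core, the cap and 3 of the 4 companion lists, and above it for the control of RPN4 (0.08 against 0.04).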

How the data were processed

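The deposited table gives a log2 ratio for each of 6174 ORFs on every array, with 0 values missing; per the labels, the ratio is treated over untreated, with the treated sample in Cy5 on A1, B1 and W303 array 1 and in Cy3 on the others. The scanner, the probes and how the authors corrected background and dyes were not given in the sources used here. Precision is limited by the number of arrays. For pair B the base of 2 follows from the back-transformed values, which were 3-decimal ratios for 100% of ORFs. On the other arrays this held for 48.0% to 50.2% of ORFs, so the check covers pair B only. ORFs were named through the locus tags of the RefSeq gene table (R64), where 5675 matched. Values were used as deposited. Pair means were fitted with limma 3.58.1 in R 4.3.3, with 1 coefficient per strain (1 residual and 6.641 prior degrees of freedom). Tests were two-sided, with Benjamini-Hochberg adjustment over all ORFs. The procedure was run on simulated data without whole numbers and with the same spread in every pair. That run therefore does not cover the whole numbers and the wider spread of pair B. The members, the companion lists and the rule for naming genes (all members; per companion list the 3 smallest p) were chosen with earlier results of these data known. The rule gives values per array to RPN4, YFH1 and the 4 lowest and 4 highest members of core and cap. PRE4, PRE8, RPN8, RPN11, RPT6 and RPN14 were added per array, and UBC4 by name, after their values were seen. Alternatives covered the unit of replication, centring, scaling, moderation, threshold, whole numbers, W303 direction and omission of each array or pair; others, for the gap between core and cap and for counts, were chosen after seeing the data.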

Additional observations from a re-analysis of the deposited data

Results flagged for a closer look

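Of the 34 members, 7 had a tetYFH1 array that stood far from the other 3 by Dixon's criterion for 4 values (20.6%, against 9.33% of all ORFs by the same criterion); the nominal rate is about 1 in 20. Standing apart were 5 of the 34 members on B1 and 2 of the 34 on A2, where 3.24% and 1.07% of all ORFs stood apart. On B1, PRE2 read −1.0 (the other arrays −0.14 to −0.12), PUP2 −0.48 (−0.06 to 0.00), RPN8 −0.89 (−0.12 to −0.11), RPN9 −0.62 (0.06 to 0.13) and RPN14 −1.0 (0.00 to 0.16). On A2, PRE1 read −0.21 (0.00 to 0.02 on the others) and PRE10 −0.35 (−0.02 to 0.00). The median of the cap genes stood apart on B1, at −0.89 (−0.11 to 0.00 on the others), and that of the core genes on A2, at −0.14 (−0.01 to 0.00). The values of PRE2 and RPN14 on B1 are among the whole numbers. Whole numbers also lie among the arrays they were compared with: an exact 0 for PRE10 on B1 and B2, PRE1 on B1, and PUP2 and RPN14 on B2. The core median was likewise 0 on B1 and B2. The part of the dye orientation or of the whole numbers in these values was not tested.

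For PRE2 and RPT6 all 4 tetYFH1 arrays lay below 0 and both W303 arrays above it. RPT6 met this with just −0.0043 on B2, and PRE2 with just 0.02 on W303 array 1. The share of all ORFs with this pattern was not counted. Below 0 on all 4 tetYFH1 arrays lay 6.75% of all ORFs, and 30.1% lay above 0 on both W303 arrays. These shares do not give the share that met both, so whether the pattern is unusual cannot be told. The differences of tetYFH1 minus W303 were −0.77 (PRE2, limma adjusted p 0.904) and −0.65 (RPT6, limma adjusted p 0.930), and neither passed.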

How the results depend on the processing

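With limma, 0 of 34 members passed under any alternative run (0 of 15 when ORFs at a whole number in pair B were left out). At an unadjusted p under 0.05 the count stayed at 0 except with arrays centred and scaled (1, where 7.87% of all ORFs had such a p) and without pair A (5: RPN2, RPN4, RPN6, SCL1 and PRE3, lowest adjusted p 0.109, where 16.9% of all ORFs had one). Without a pair the remaining arrays entered singly, since 1 pair mean leaves no residual degrees of freedom. Over all ORFs, 25 were called lower and 0 higher. The lower count was 3 when ORFs at a whole number in pair B were left out, 0 with arrays centred, 0 with arrays centred and scaled, 68 with each array as a replicate, and between 0 and 112 without 1 array or pair. The higher count was 2 at an adjusted p under 0.1, 18 with each array as a replicate, and between 0 and 188 without 1 array or pair. With the array number within a pair as a replicate block, 53 ORFs were lower and 6 higher. That number follows the dye orientation, and the difference between the first and second array correlated at 0.111 between pairs A and B, −0.0861 between A and W303 and −0.161 between B and W303 across ORFs, so the numbers were not taken to pair samples.

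The median of the core genes in tetYFH1 was −0.12 with arrays centred and −0.13 with arrays centred and scaled. In W303 it was 0.15 without whole numbers, −0.26 with the W303 ratios turned, and between 0.018 and 0.47 without 1 array. With the ratios turned the cap median was −0.17 and RPN4 0.060 in W303. With arrays centred RPN1 in tetYFH1 was −0.027 and RPT5 −0.0071, and RPT5 was −0.017 with scaling too.

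The tetYFH1 value of a member could change only with arrays centred or scaled, or without a tetYFH1 array or pair. Under the other alternatives its sign was fixed in advance. Of 34 members, 17 kept the sign of their tetYFH1 value under every alternative run that included them, 2 (PRE7 and PRE10) were at exactly 0 without pair A, and 15 changed sign. The share of all ORFs that kept their sign was not counted. Without 1 array or pair, the values of these 15 lay between −0.10 and 0.0093 (PRE1), −0.41 and 0.26 (PRE4), −0.11 and 0.11 (PRE5), −0.41 and 0.25 (PRE8), −0.25 and 0.20 (PRE9), −0.20 and 0.17 (PUP1), −0.10 and 0.0096 (PUP3), −0.28 and 0.36 (RPN1), −0.029 and 0.016 (RPN10), −0.50 and 0.14 (RPN12), −0.50 and 0.15 (RPN14), −0.88 and 0.034 (RPN2), −0.27 and 0.10 (RPN9), −0.064 and 0.18 (RPT5), and −0.83 and 0.0055 (RPN4). The RPN4 difference between strains lay between −0.77 and 0.065. The causes were not tested. A planned search of the members' promoters was not run.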
